A study of Mus musculus with 2 samples.

Results

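The genes described here are 10 mouse genes that mark the maturation of neutrophils, the phagocytic granulocytes: Mpo, Elane, Prtn3 and Ctsg of the primary granule, S100a8 and S100a9 of the cytosol, and Ltf, Camp, Ngp and Lcn2 of the secondary granule. They were taken by symbol, each matched to 1 Ensembl gene, and all 10 were found among the 43346 genes of the gene tables. Polyadenylated RNA of more than 200 nt was sequenced as stranded read pairs from whole liver of C57BL/6J embryos at embryonic day 14.5 (E14.5). The series holds 1 group, E14.5 liver, with biological replicates 2 and 1, each of pooled male and female littermates, and no treatment, mutation or other tissue. The data therefore give the levels of the 10 genes in this organ, their order, their transcripts and how far the 2 libraries differ.

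Neutrophils arm their granules in sequence. Promyelocytes make the primary (azurophil) granules, filled with myeloperoxidase and serine proteases, while myelocytes and metamyelocytes make the secondary (specific) granules, filled with iron-binding and antimicrobial proteins, and shut the primary genes off. The fetal liver is the main blood-forming organ before the bone marrow takes over, and granulocyte precursors form there beside the far more numerous erythroid cells. In whole tissue, fewer cells of a type and less RNA per cell cannot be told apart.

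The gene tables held 65640929 estimated counts in replicate 2 and 102720906 in replicate 1. Spike-in RNA took 1.82% of all counts in replicate 2 and 2.84% in replicate 1. The labelled tissue was checked by its markers: albumin (Alb) stood at 8911 TPM (an abundance that the authors scaled by effective length and depth) in replicate 2 and 10323 TPM in replicate 1, and the adult beta-globin gene Hbb-bs at 126183 and 143676 TPM. Without molecular identifiers, the intervals given cover no more than counting error.

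The primary granule genes were all abundant. Mpo, which encodes the heme peroxidase that makes hypochlorous acid (chr11:87793581-87804413 in mm10, plus strand), had 158.95 TPM in replicate 2 and 135.90 TPM in replicate 1, from 26178 and 28899 counts. It ranked at the 98.1 percentile of all genes with a count. Prtn3, which encodes proteinase 3 (chr10:79874476-79883174, plus strand), had 150.76 TPM in replicate 2 and 128.25 TPM in replicate 1. The ranges of Mpo and Prtn3 over the libraries overlapped, yet within each library Mpo was slightly higher, by 1.054-fold in replicate 2 and 1.060-fold in replicate 1. The log2 ratio of Mpo to Prtn3 was 0.08 ± 0.005 (SD, n = 2). This SD covers the difference between the libraries and not error in the scaling for length, which both libraries share. In counts, not scaled for length, Mpo exceeded Prtn3 2.726-fold in replicate 2 and 2.622-fold in replicate 1.

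Elane, which encodes neutrophil elastase, lies 3.1 kb downstream of Prtn3 (chr10:79886247-79888215, plus strand). It had 67.31 TPM in replicate 2 and 54.38 TPM in replicate 1, with a mean of 60.8 ± 9.14 TPM (SD, n = 2). Prtn3 exceeded its neighbour 2.24-fold in replicate 2 and 2.36-fold in replicate 1. Ctsg, which encodes cathepsin G, a serine protease also made by mast cells (chr14:56099881-56102574, minus strand), was the lowest of the primary genes. It had 31.68 TPM in replicate 2 and 31.10 TPM in replicate 1, and Mpo exceeded it 5.02-fold and 4.37-fold in those libraries.

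The bases before the 3 serine protease genes are shown because each holds the GAGGAA motif, beside those before Ngp, a secondary granule gene chosen because it lacks this motif. The motif does not separate the classes, since the secondary genes Ltf and Lcn2 hold it too. The stretches are from RefSeq on GRCm38.p6, begin 250 bases before the RefSeq start of each gene and stop before the first annotated exon. Capitals mark any match to 1 of 4 motifs on either strand: TTGCNNA for C/EBP, GAGGAA for PU.1, AACNG for Myb and TATAAA for the TATA box.
Elane, chr10:79886062-79886246, plus strand: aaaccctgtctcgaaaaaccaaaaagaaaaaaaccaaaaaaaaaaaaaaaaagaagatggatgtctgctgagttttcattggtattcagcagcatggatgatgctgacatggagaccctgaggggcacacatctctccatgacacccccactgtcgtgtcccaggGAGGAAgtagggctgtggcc
Prtn3, chr10:79879417-79879613, plus strand: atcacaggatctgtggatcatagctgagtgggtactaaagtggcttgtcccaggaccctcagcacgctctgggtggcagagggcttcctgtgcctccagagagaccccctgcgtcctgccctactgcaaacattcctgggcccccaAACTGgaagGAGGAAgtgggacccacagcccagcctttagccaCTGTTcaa
Ctsg, chr14:56102575-56102824, minus strand: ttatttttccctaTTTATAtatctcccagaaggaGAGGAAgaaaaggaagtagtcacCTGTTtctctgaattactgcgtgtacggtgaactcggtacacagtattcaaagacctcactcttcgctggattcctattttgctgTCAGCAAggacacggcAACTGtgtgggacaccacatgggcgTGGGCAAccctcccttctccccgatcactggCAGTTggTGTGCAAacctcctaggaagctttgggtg
Ngp, chr9:110419558-110419746, plus strand: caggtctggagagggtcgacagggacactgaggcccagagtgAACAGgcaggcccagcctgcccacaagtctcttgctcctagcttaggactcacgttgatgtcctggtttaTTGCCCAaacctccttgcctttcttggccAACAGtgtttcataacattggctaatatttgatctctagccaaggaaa

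Over the 250 bases before the start, GAGGAA or its reverse complement was found at 7 of the 10 genes, namely all 4 primary genes, 2 of the 4 secondary genes (Ltf and Lcn2) and S100a8. It was found in 23.3% of the 32817 RefSeq promoters of the same length. In Elane it lay 85 to 80 bases and in Prtn3 95 to 90 bases before the start. TTGCNNA was found at 5 of the 10, namely Ctsg among the primary genes, Ltf, Ngp and Lcn2 among the secondary genes, and S100a9, against 32.8% of all promoters. Ctsg and Lcn2 each held 3 such matches. AACNG, a short motif found in 74.2% of all promoters, was present at all 10 genes, and TATAAA was present at Ctsg and S100a8, against 12.4% of all promoters. Camp held no match but 1 of AACNG. Part of the window lay in annotated exons of the gene itself, 203 bases in Mpo, 197 in Lcn2, 161 in Camp and 93 in S100a8. In the other genes it was 65 bases or fewer. Among the matches in such exon bases were every AACNG of Camp, Mpo and Elane, the GAGGAA of Lcn2 and the TATAAA of S100a8. The GAGGAA match of S100a8 and the TTGCNNA match of Ngp that lay nearest to the start were also in exon bases. Where no match was found, these letters are absent from this window and no more.

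S100a8 and S100a9 encode the chains of calprotectin, a calcium- and zinc-binding heterodimer that fills the cytosol of neutrophils and of many monocytes. The genes lie 22.6 kb apart on chromosome 3 and point towards each other, S100a8 on the plus strand (chr3:90668978-90670035) and S100a9 on the minus strand (chr3:90692632-90695721). S100a8 had 3569 counts in replicate 2 and 13590 counts in replicate 1, and S100a9 had 6042 and 15659 counts. Scaled for length, S100a9 stood at 289.10 TPM in replicate 2 and 413.42 TPM in replicate 1. The log2 ratio of S100a8 to S100a9 in TPM was 0.46 in replicate 2 and 0.54 in replicate 1, a mean of 0.50 ± 0.06 (SD, n = 2). In counts the order was the other way, with S100a8 at 0.591 of S100a9 in replicate 2 and 0.868 in replicate 1. The pair made up 54.7% of the summed TPM of the 10 genes in replicate 2 and 67.1% in replicate 1.

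The secondary granule genes spread more widely. Camp, which encodes the cathelicidin precursor of the antimicrobial peptide CRAMP (chr9:109847379-109849617, minus strand), was the highest of them, at 80.26 TPM in replicate 2 and 74.97 TPM in replicate 1 (mean 77.6 ± 3.74, SD, n = 2). Ngp, the neutrophilic granule protein, a relative of the cathelicidins and cystatins (chr9:110419747-110423012, plus strand), had 44.97 TPM in replicate 2 and 39.10 TPM in replicate 1. Camp exceeded Ngp 1.78-fold in replicate 2 and 1.92-fold in replicate 1.

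Lcn2, which encodes lipocalin 2, a protein that binds bacterial siderophores and that liver cells can also make (chr2:32384633-32388252, minus strand), had 29.91 TPM in replicate 2 and 28.58 TPM in replicate 1. Ltf, which encodes the iron-binding protein lactoferrin (chr9:111019271-111042767, plus strand), was the lowest of the 10 in both libraries. It had 4.55 TPM in replicate 2 and 6.31 TPM in replicate 1, from 1098 and 2016 counts. Camp exceeded Ltf 17.6-fold in replicate 2 and 11.9-fold in replicate 1, while the widest ratio within the primary genes was 5.02-fold and 4.37-fold. Camp, Ngp and Ltf share chromosome 9, with gaps of 570.1 kb from Camp to Ngp and 596.3 kb from Ngp to Ltf.

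**Figure D1:**
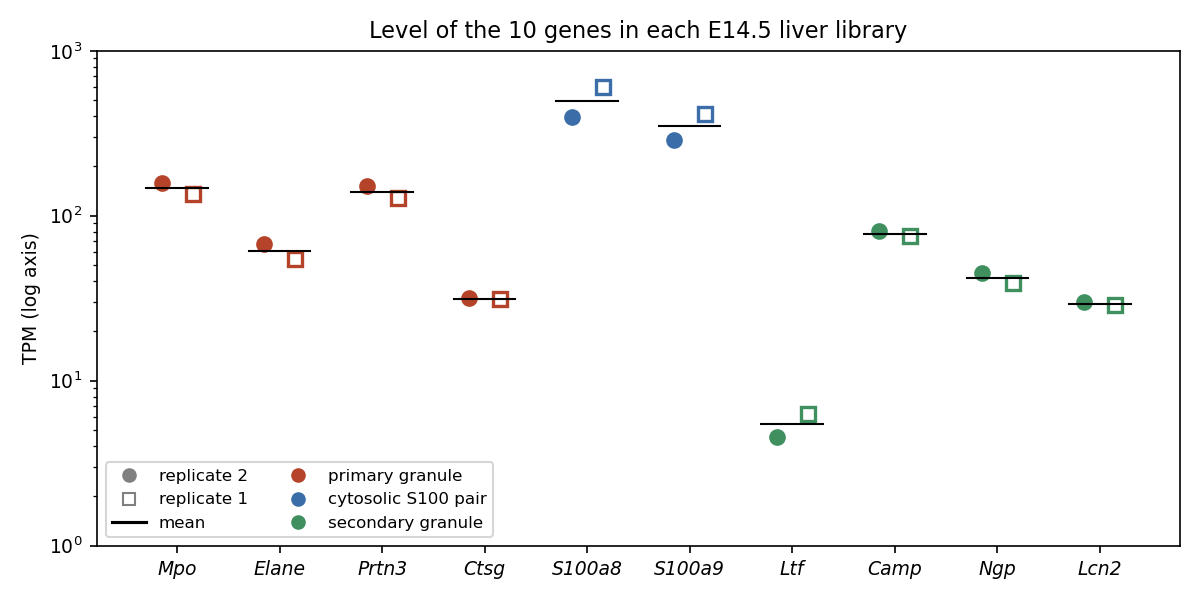
TPM of each gene on a log axis, with replicate 2 as filled circles, replicate 1 as open squares and a line at the mean. The order of the genes was the same in both libraries, S100a8 and S100a9 were higher in replicate 1, and Ltf stood below all others at 4.55 TPM in replicate 2 and 6.31 TPM in replicate 1.

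The order of the 10 genes was the same in both libraries: S100a8, S100a9, Mpo, Prtn3, Camp, Elane, Ngp, Ctsg, Lcn2 and Ltf. Of the 9 pairs of neighbours in this order, S100a8 with S100a9 and Mpo with Prtn3 had ranges that overlapped, although the first of each pair was higher within each library, and the others were separate. The step from Lcn2 to Ltf was the widest, a ratio of means of 5.39, and that from Ctsg to Lcn2 the narrowest of the separate steps, at 1.07. The genes nearest to Mpo in level were Slc43a1, Epor and Tecr, at Euclidean distances of 0.0796, 0.0866 and 0.0879 over log2(TPM + 0.01) in the 2 libraries. Those nearest to Ltf were Cd320, Ptk2 and Tatdn3, at distances of 0.0063, 0.0132 and 0.0132.

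Primary granule genes stood above secondary granule genes on average, with a large part of the difference resting on the low level of Ltf. The mean log2(TPM + 0.01) of the primary genes minus that of the secondary genes was 1.67 in replicate 2 and 1.45 in replicate 1, a mean of 1.56 ± 0.16 (SD, n = 2). The summed primary level was 408.7 TPM in replicate 2 and 349.6 TPM in replicate 1, against 159.7 and 149.0 TPM for the secondary genes. As a share of the summed TPM of the 10 genes, the primary genes took 32.6% in replicate 2 and 23.1% in replicate 1, and the secondary genes 12.7% and 9.84%. The classes were not separate, since a primary gene was higher than a secondary gene in 13 of 16 pairs in each library. Camp exceeded Elane and Ctsg, and Ngp exceeded Ctsg. With Ltf left out the difference was 0.83 in replicate 2 and 0.75 in replicate 1. With 1 group of 2 libraries no test of this difference was made. When the cytosolic pair was counted with the secondary class, the difference was 0.45 in replicate 2 and 0.05 in replicate 1.

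Between the libraries, the 10 genes did not move together. An exact binomial test per gene, which compares these 2 libraries and not conditions, called 1 of the 10 (adjusted p under 0.05 with a 2-fold difference or more), beside 8.1% of the 17906 genes tested. The called gene was S100a8, whose log2 count ratio of replicate 2 over replicate 1 was -1.29 (95% interval -1.34 to -1.24). Among all genes tested 4.57% were called lower in replicate 2. S100a9 had a log2 count ratio of -0.73 (interval -0.78 to -0.69) and stayed under the 2-fold limit. At an adjusted p under 0.05 of any size 9 of the 10 passed, beside 60.1% of all genes tested.

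The primary genes Mpo, Prtn3, Elane and Ctsg had log2 count ratios of 0.50, 0.44, 0.40 and 0.14, all higher in replicate 2. Of the secondary genes, Ngp had 0.35, Lcn2 0.16 and Camp 0.01, the last with an exact test adjusted p of 0.861, and Ltf was lower in replicate 2 at -0.24 with TMM sizes and higher at 0.425 with spike-in sizes. S100a8 was not called by edgeR's exact test with the common dispersion of all tested genes (adjusted p = 0.382), and was called with that of housekeeping genes (adjusted p = 0.0184), where 1.71% of all genes tested were called lower in replicate 2. With spike-in counts as library sizes, the median log2 ratio of all tested genes was 0.65, S100a8 stood at -0.63 and was not called, and 4 of the 10, Mpo, Elane, Prtn3 and Ngp, were called higher in replicate 2, beside 19.7% of all genes tested.

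Transcript length moved with this difference. S100a8 is the shortest of the 10 at 392 nt, and its effective length, the number of positions at which a fragment can start, was 91.0 nt in replicate 2 and 178.8 nt in replicate 1. For S100a9 it was 211.44 nt and 299.99 nt. Scaled for effective length, the log2 TPM ratio was -0.60 for S100a8 and -0.52 for S100a9, beside a median of -0.24 over all genes averaging 1 TPM or more. Of the 90 protein-coding genes shorter than 500 nt and averaging 10 TPM or more, 29 were called between the libraries, or 32.2%. Their median log2 ratio was -0.58 in counts and 0.01 in TPM. Of the 1954 such genes from 1000 to 2000 nt, 1.7% were called, with medians of 0.00 in counts and -0.20 in TPM. The part of length in the difference of S100a8 was not tested.

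**Figure D2:**
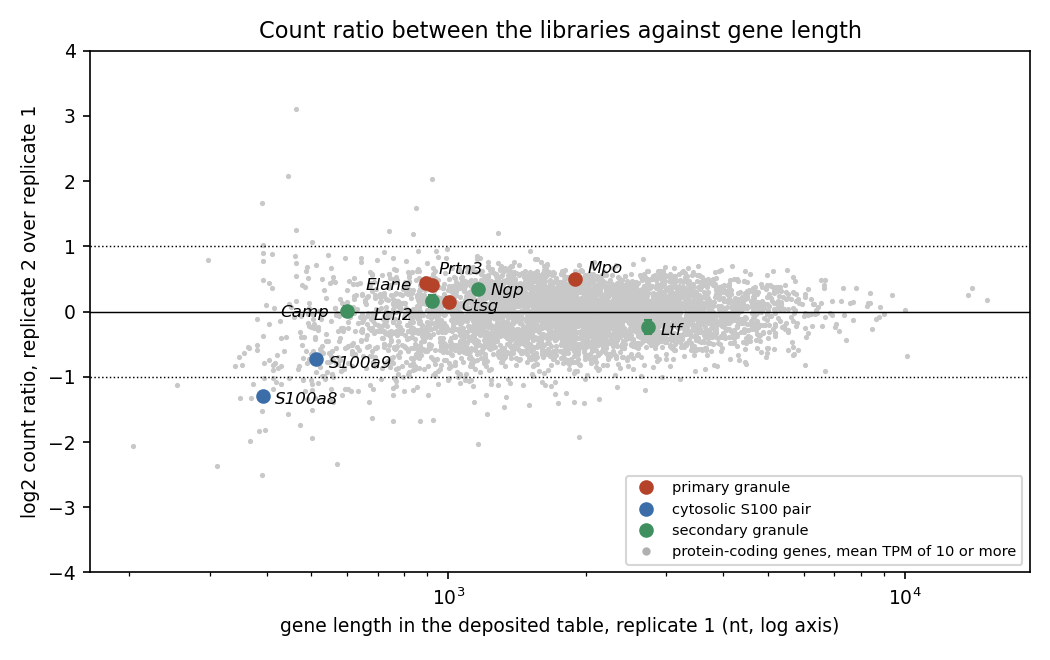
Log2 count ratio of replicate 2 over replicate 1 against gene length in nt on a log axis; coloured points are the 10 genes with 95% intervals, grey points are protein-coding genes with a mean TPM of 10 or more, and dotted lines mark 2-fold. S100a8 at 392 nt lies below the lower line at -1.29, and the other 9 genes lie between the lines.

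The transcript tables held 26 transcripts of the 10 genes. Elane, Ctsg, S100a8, Ltf, Camp and Ngp had 1 each, and Lcn2-201 took 95.31% of Lcn2 in replicate 2 and 95.69% in replicate 1. S100a9-201 took 85.39% of S100a9 in replicate 2 and 83.14% in replicate 1, and S100a9-202 the rest. These 2 transcripts splice to acceptors 3 nt apart in the first intron. Of the reads over that intron in the mm9 junction table, the acceptor of S100a9-201 had 84.1% of 1447 in the first of the table's 2 replicates (Wilson 95% interval 82.1 to 85.9) and 83.0% of 759 in the second (80.2 to 85.5). The mm9 tables do not say which of their replicates is which library.

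Of the genes with several transcripts in mm10, Prtn3 had the largest difference in mm10 shares between the libraries. Prtn3-201, the full-length coding transcript of 1025 nt, took 72.32% in replicate 2 and 55.07% in replicate 1. The 3 transcripts annotated as retaining an intron together took 26.91% in replicate 2 and 44.38% in replicate 1, most of it Prtn3-204 with 20.43% and 33.53%. These shares are the authors' model estimates, and with 2 libraries no test of them was made. By mm9 RPKM, a read density per length and depth, Prtn3-201 took 63.71% in the first replicate and 69.35% in the second. Mpo-203 took 78.71% and 58.48% there, a wider difference than that of Prtn3-201.

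The junction table also held a Prtn3 junction that no annotated transcript has. It joins exon 1 to exon 3 (chr10:79342488-79343780 in mm9) and leaves out exon 2, which is 166 nt long and so not a multiple of 3. It had 258 reads, 100 in the first replicate and 158 in the second, at an irreproducible discovery rate (IDR, small where both replicates show the feature) of 0.003. The introns on either side of exon 2 had 5328 and 2885 reads. These were 1896 and 1963 reads in the first replicate, but 3432 and 922 in the second. The share of skipping was taken over the skipping reads plus the mean of these introns. It was 4.93% in the first replicate (Wilson 95% interval 4.07 to 5.96) and 6.77% in the second (5.82 to 7.86). The intervals do not cover the uneven reads of the introns, so the shares were not compared between the replicates. The coding bases on both sides of the usual and the skipping join, from the GENCODE transcript Prtn3-201 on GRCm38, are shown with the bases after the join in capitals.
Prtn3 exon 1 to exon 2: ccctggtggttggtgGCGCAGTCCAGGCCT
Prtn3 exon 1 to exon 3: ccctggtggttggtgCTCCTGGCAGCTTGT

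For Mpo the transcript shares and the junction reads ranked the 5′ ends differently. Mpo-203 took 71.30% in replicate 2 and 66.47% in replicate 1, the 640 nt Mpo-205 took 21.81% and 26.34%, and Mpo-201 took 3.16% and 3.90%. These shares are scaled for length, and in estimated counts the mean share of the short Mpo-205 was 5.55%, against 24.07%, and that of Mpo-203 was 88.42%, against 68.88%. Mpo-201 and Mpo-203 share their later introns and differ in the first exon. In the mm9 junction table the first intron of Mpo-201 (chr11:87607578-87608038) had 155 reads and that of Mpo-203 (chr11:87607865-87608038) had 10 reads. Mpo-204, whose first exon ends at the same base as that of Mpo-201, had 10 reads over its own first intron. Of the 175 reads over these 3 first introns, Mpo-201 thus had 88.6% (Wilson 95% interval 83.0 to 92.5) and Mpo-203 5.71% (3.13 to 10.2). The second intron of both had 1871 reads. RefSeq places the start of Mpo within the first exon of Mpo-201.

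**Figure D3:**
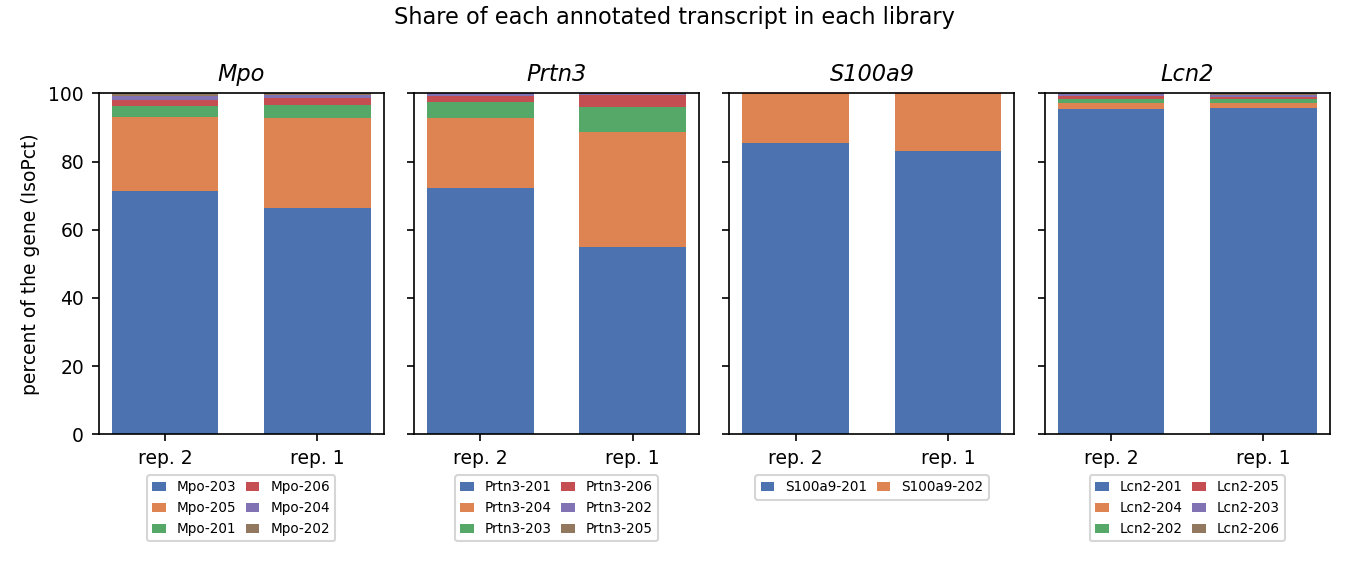
Percent of each gene assigned to its annotated transcripts in replicate 2 and replicate 1, for the 4 genes with more than 1 transcript. Prtn3-201 takes 72.32% in replicate 2 and 55.07% in replicate 1, whereas Lcn2-201 takes 95.31% and 95.69%.

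Splicing of the 10 genes followed the annotation closely. Of their 64 annotated introns in mm9, 62 had reads at an IDR under 0.1. Junctions outside the annotation held 0.85% of all junction reads within the genes or just beyond their ends. Prtn3 had the highest such share, at 2.46%, and Elane the lowest, at 0.38%. At an IDR under 0.1 there were 20 unannotated junctions in all, of which 6 lay in Prtn3, 4 in Ctsg, 4 in S100a8, 3 in Mpo, 2 in S100a9 and 1 in Lcn2. Some of those in S100a8, S100a9 and Mpo had each end within 10 nt of that of an annotated intron. Whether these are splice sites of their own was not tested. Elane, Ltf, Camp and Ngp had none. S100a8 had the most reads over 1 intron, 12777, and no intron of Ltf had more than 337. Read numbers of the 2 replicates differed unevenly between introns of the same gene, for Lcn2 from a ratio of 0.22 to 1.71 of the second over the first, so junction reads were not used to compare libraries.

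The mm9 gene table gave a similar but not identical order. By mean RPKM, a read density per length and depth, the order was S100a8, Mpo, S100a9, Prtn3, Elane, Camp, Ngp, Ctsg, Lcn2 and Ltf, with 6 of the 10 at the same place as in mm10. The second and first RPKM values of the table were 44.5 and 41.2 for Mpo, 32.2 and 25.4 for Prtn3, 13.7 and 10.4 for Elane, and 6.14 and 6.09 for Ctsg. S100a8 had 31.9 and 76.1 RPKM in this order, and S100a9 25.3 and 48.0 RPKM. Camp had 10.96 and 10.97 RPKM, Ngp 10.02 and 7.90 RPKM, Lcn2 6.07 and 5.43 RPKM, and Ltf 1.10 and 1.40 RPKM. The S100 pair again differed most between the replicates, with log2 ratios of the second over the first of -1.26 and -0.93, and no other of the 10 went beyond 0.39 in size.

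The mm10 mean TPM was 9.25 times the mm9 mean RPKM for S100a8 and 9.58 times for S100a9, beside a median of 3.55 over 11287 genes. Camp, the third shortest of the 10, stood at 7.08 times, and Mpo at 3.44 times. The mean log2 RPKM of the primary genes exceeded that of the secondary genes by 1.75, beside 1.56 in mm10 TPM. At the transcript level Camp had a pair of models in mm9 and 1 in mm10, and Camp-201 took 36.7% of the first RPKM value and 73.2% of the second.

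**Figure D4:**
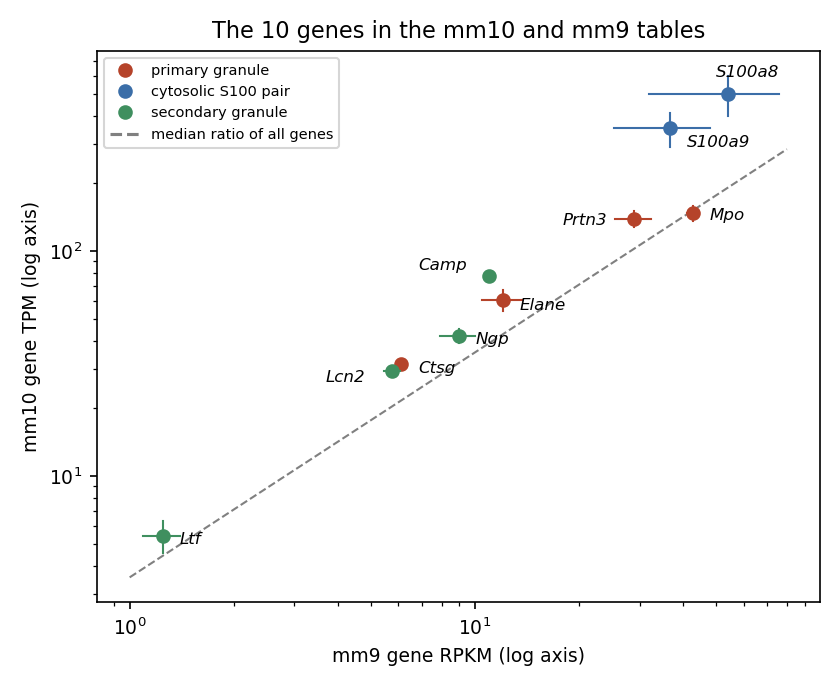
Mean mm10 TPM against mean mm9 RPKM of each gene on log axes, with lines over the 2 values of each axis and a dashed line at the median ratio of all genes, 3.55. S100a8 and S100a9 lie farthest above the dashed line, and Mpo lies on it.

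The authors' contigs, stretches of continuous read coverage in mm9, covered 7 of the 10 genes from end to end, and Ngp over 98.4% of its length. The main contig of Mpo was 13090 nt long and ran 2129 nt past the annotated 3′ end, and that of Ctsg ran 2766 nt past it. No main contig reached another annotated gene on its strand. Contig signal, the authors' value per contig on a scale that the sources used here do not state, was 63.6 for S100a8, 44.7 for S100a9, 39.5 for Prtn3, 30.1 for Elane, 28.9 for Mpo, 18.1 for Camp, 9.05 for Lcn2 and 7.42 for Ctsg. Ngp had 2 contigs with signals up to 27.0, and Ltf was covered in 27 pieces with signals up to 8.75. Contigs on the opposite strand had signals of 0.273 for S100a9, 0.148 for Camp and 0.054 for Ctsg, and one at the far upstream exon of Prtn3 reached 2.52.

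The other genes of granulopoiesis were read from lists. Of 12 further genes of the primary granule and its processing, 11 had at least 1 TPM in both libraries, with a median of 9.53 TPM in replicate 2 and 11.4 TPM in replicate 1. Lyz2, the lysozyme of myeloid cells, led at 96.91 TPM in replicate 2, against 95.53 TPM in replicate 1, followed by the granule membrane protein Cd63 with 27.73 and 34.46 TPM and the proteoglycan Srgn with 22.99 and 22.61 TPM. Of 16 further genes of secondary and tertiary granules, 10 had at least 1 TPM in both, with a median of 2.23 TPM in replicate 2 and 2.67 TPM in replicate 1. The reductase gene Cyb5r3 (85.94 and 76.34 TPM), the NADPH oxidase subunit gene Cyba (71.39 and 66.58 TPM) and the haptoglobin gene Hp (21.57 and 30.53 TPM) led that list, and all 3 are also used by other cells.

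The list of mature neutrophil genes had a lower median, over 16 genes, of 1.69 TPM in replicate 2 and 1.61 TPM in replicate 1. The leading genes were Stfa2l1 (23.16 and 29.54 TPM), the Fc receptor gene Fcgr3 (12.52 and 13.97 TPM) and the chemokine receptor gene Cxcr4 (9.04 and 9.06 TPM). Cxcr4 was also on the list of cytokines and receptors, and the part of other cell types in the levels of these genes was not tested. The neutrophil antigen gene Ly6g had 32 and 27 counts, and the chemokine receptor gene Cxcr2 0.68 and 0.56 TPM; both were picked after their values were seen.

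All 12 transcription factor genes of granulopoiesis had counts, and 11 had at least 1 TPM in both libraries. Cebpa, needed for entry into the granulocyte line, had 17.84 TPM in replicate 2 and 14.26 TPM in replicate 1, Spi1 (PU.1) 13.15 and 19.23 TPM, and Myb 12.70 and 15.19 TPM. Cebpb, a factor of emergency granulopoiesis, was called lower in replicate 2, with 637 counts against 2680 in replicate 1 and a log2 ratio of -1.43. Of 11 cytokine and receptor genes, Cxcl12 led with 39.55 and 42.07 TPM, then Csf2ra with 11.12 and 10.57 TPM and Csf1r with 10.66 and 10.75 TPM. Csf2, which encodes GM-CSF, had 0 counts in both libraries, a result that leaves room for 0.0457 CPM (depth-scaled counts) in replicate 2 and 0.0292 CPM in replicate 1.

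Among 13 S100 genes of the cluster, S100a11 followed S100a8 and S100a9, at 38.74 TPM in replicate 2 and 44.32 TPM in replicate 1. S100a4 was called lower in replicate 2, with 20 counts against 68, and S100a5 had 0 counts in both. Of the relatives of Camp and Ngp, the stefin gene Stfa1 had 152.85 and 182.83 TPM and the cystatin C gene Cst3 92.31 and 102.12 TPM, while Csta1 had 0 counts in both. Stfa1 shared reads with its near copy BC100530, since both had counts that were not whole, so its level is uncertain.

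**Figure D5:**
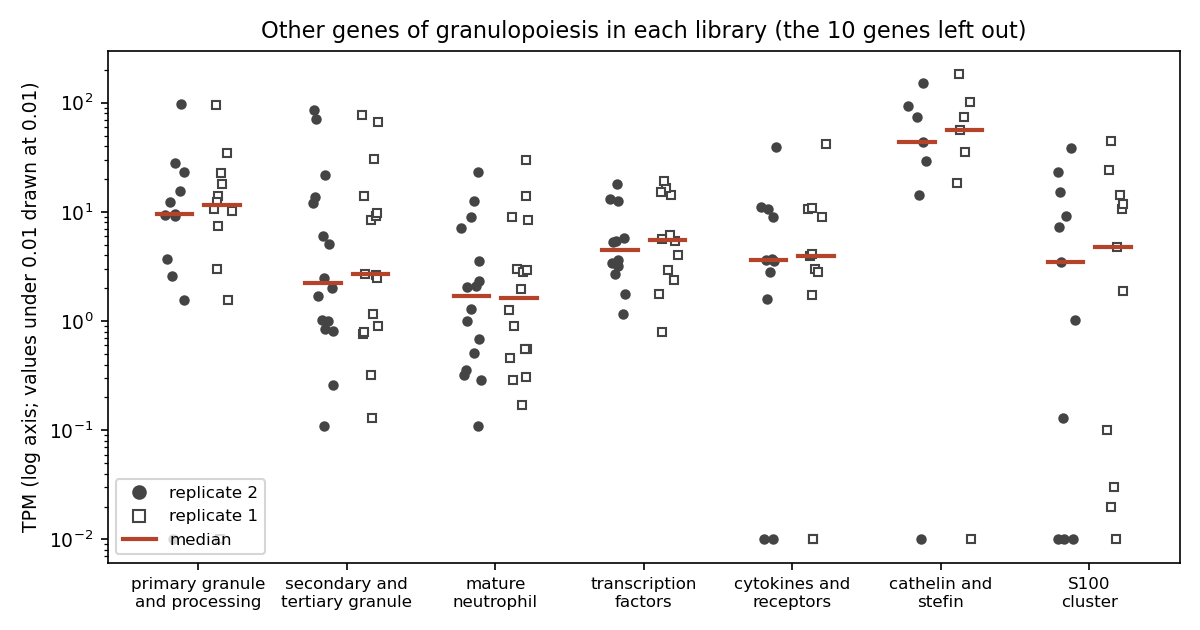
TPM of the listed genes of granulopoiesis on a log axis, the 10 genes left out, with replicate 2 as filled circles left of replicate 1 as open squares and red lines at the medians; values under 0.01 are drawn at 0.01. The medians of the primary granule list, 9.53 TPM in replicate 2 and 11.4 TPM in replicate 1, lie above those of the mature neutrophil list, 1.69 and 1.61 TPM.

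Markers of other cells that can share these genes were also read. Over the 14 monocyte and macrophage genes the summed level was 217.4 TPM in replicate 2 and 205.1 TPM in replicate 1, and 13 had at least 1 TPM in both. C1qb (66.25 and 55.51 TPM), C1qc (37.00 and 32.67 TPM) and C1qa (26.14 and 22.85 TPM) led, and none was called. Over the 15 mast cell, basophil and eosinophil genes the sum was 74.3 TPM in replicate 2 and 122.7 TPM in replicate 1. Prg2 (32.90 and 59.76 TPM), Ear2 (18.54 and 24.79 TPM) and Ear1 (8.68 and 17.95 TPM) led, and Ear1 was called lower in replicate 2 with Mcpt8. Of the hepatocyte and acute phase genes, Saa3 was called lower in replicate 2 with 5 counts against 30, and Saa2 and Orm2 had 0 counts in both. Of the 128 listed genes tested outside the 10, 0 were called higher in replicate 2 by the exact binomial test, beside 3.53% of all genes, and 5 were called lower, beside 4.57%. The part of other cell types in the levels of the 10 genes was not tested.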

How the data were processed

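Polyadenylated RNA from E14.5 mouse liver was measured in 2 libraries, biological replicates 2 and 1 of 1 group. The 10 genes and the gene lists were chosen with earlier results of these data known. Per the file headers, the authors' mm10 tables give each gene TPM, FPKM and an expected count, which can be fractional, and the transcript tables the percent of a gene assigned to each transcript. A deposited note names mm10 and annotation M4. The mm9 tables hold RPKM of 2 replicates, the junction table a read count and the contig table a coverage signal, each with an IDR, per the file headers. The aligner is not given in the sources used here. Which mm9 replicate is which library is not stated. All 10 members have whole expected counts.

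Symbols came from GENCODE M21, on the build of mm10, by unversioned identifier, and 42462 of 43346 genes got one. Expected counts were rounded. Spike-ins (1.82% of counts in replicate 2, 2.84% in replicate 1), 26248 rows with numeric identifiers and phiX (0.0857% in replicate 2, 0.0764% in replicate 1) stayed out of library sizes and tests. With 1 library a side, edgeR's quasi-likelihood test cannot be fitted, so a two-sided exact binomial test was used with TMM sizes and Benjamini-Hochberg adjustment over all genes of 10 or more counts, with 0.5 added to counts in fold changes. The test was checked on simulated data with counting error alone, so the check does not cover variation between libraries. A p-value here compares 2 libraries, not conditions. Wilson 95% intervals were used for shares.

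Motifs were counted on both strands in the 250 bases before each RefSeq start (GRCm38.p6), and all 10 members matched. Junctions on the strand of a gene were kept where they lay within its span or a short margin beyond either end. Genes stand on a pair of equal lines in the mm9 table, and 1 line was kept. De novo models were not used. Named genes are the 10, the 3 highest of each list (erythroid, hepatocyte and housekeeping lists are given only where they bear on the text), listed genes called or at 0 in both libraries, and the 3 nearest in level to Mpo and Ltf. Ly6g and Cxcr2 lie outside this rule and were picked after their values were seen. R 4.3.3, edgeR 4.0.16, DESeq2 1.42.0, matplotlib 3.10.9, scipy 1.17.1, statsmodels 0.14.6, numpy 2.4.6, Python 3.11.15 and pandas 2.3.3 were used.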

Additional observations from a re-analysis of the deposited data

How the results depend on the processing

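The order of the 10 genes was the same in either library alone, and 6 of 10 kept their place by mm9 RPKM. The FPKM order had to match, since FPKM is proportional to TPM within a library. The top place of S100a8 depended on scaling for length. In CPM, not scaled for length, S100a8 had 54.4 in replicate 2 and 132.3 in replicate 1, below Mpo at 398.8 and 281.3. The log2 difference of primary minus secondary genes, 1.56, was 1.39 by class medians, 1.29 by summed TPM, 1.75 in mm9 RPKM and 0.248 with the S100 pair counted as secondary. With single genes left out, settings chosen after seeing the data except for Lcn2 (1.605), it was 0.79 without Ltf, 1.263 without Mpo, 1.29 without Prtn3, 1.69 without Elane, 1.779 without Ngp, 2.005 without Ctsg and 2.074 without Camp. It ranged from 1.45 to 1.67 over single libraries, and the sign was positive in every setting run. The log2 ratio of S100a8 to S100a9 ranged from 0.46 to 0.54 over single libraries, and the leading transcript of each gene was the same in every setting run. For the 6 genes with 1 transcript it could not change, and shares of FPKM had to match. The mm9 shares were not among these settings, and there Camp-201 took 36.7% of the first value and 73.2% of the second.

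The calls over all genes, 1450 (632 higher and 818 lower in replicate 2, 43.6% higher), were 3795 (3524 and 271, 92.9% higher) with spike-in sizes, a scaling that shifts the median log2 ratio to 0.65. They were 513 (145 and 368, 28.3% higher) with a minimum of 100 counts, 242 (133 and 109) by edgeR's exact test with the dispersion of all genes and 560 (254 and 306, 45.4% higher) with that of housekeeping genes. Of 70 values of the 10 genes under 7 other settings, 63 kept their direction and call. Many of these could hardly change. The minimum count does not enter a gene's log2 ratio, and DESeq2 and total-count sizes were close to TMM sizes. A gene under the 2-fold limit also counts as kept whatever its adjusted p. The exceptions were S100a8 with the dispersion of all genes (adjusted p = 0.382), where 0 of the 10 were called, and, with spike-in sizes, Mpo, Elane, Prtn3 and Ngp, which passed, S100a8 (-0.63), which did not, and Ltf, whose log2 ratio was 0.425, against -0.24 with TMM sizes. The log2 TPM ratio of S100a8, a setting chosen after seeing the data, was -0.60, under 2-fold. The cause of these changes was not tested.

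By estimated counts the share of Mpo-203, 68.9%, was 88.4% and that of Mpo-205, 24.07%, was 5.55%, since counts are not scaled for length. Unannotated junctions were 292 without an IDR limit, against 20 with it. Of the listed genes, 112 had 1 TPM in both libraries and 64 had 10 TPM. The comparison of replicate 2 with replicate 1 needs both, so neither was left out there. No paired analysis was possible because there is 1 group. With 2 libraries the SDs are imprecise, and junction reads limit the first introns of Mpo to 175 reads.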
